A study of Gallus gallus with 28 samples.

Results

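The genes described here encode the nuclear subunits of the mitochondrial respiratory chain and ATP synthase, followed in chick intestine from late embryonic life to d14. They were chosen by gene symbol in the array's probe annotation: symbols beginning NDUFA, NDUFB, NDUFC, NDUFS or NDUFV (complex I), the SDH genes (complex II), symbols beginning UQCR (complex III), COX4 to COX8 (complex IV) and symbols beginning ATP5 (complex V). This gave 74 of the 13009 annotated genes, each represented by 1 probe set, the one with the highest mean over all arrays. They comprise 33 genes of complex I, 2 of complex II (SDHA and SDHD), 8 of complex III, 8 of complex IV, 13 of complex V, the 8 complex I assembly factors NDUFAF1 to NDUFAF8, the supercomplex factor COX7A2L and ATP5S, a coupling factor. NDUFA4 was placed with complex IV, where it was found to belong in mammals. The rule names symbols and uses no difference between ages, but the probe set of each gene was picked by its measured mean.

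Total RNA of male chicks was hybridised to 28 one-colour arrays, 4 at each of 7 ages. The ages were embryonic day 18 (e18), embryonic day 20 (e20), hatch, and 4 later ages named by their number of days from hatching (d1, d3, d7, d14). Per the labels, the RNA came from intestinal segments of 6 male birds at an age, in a tissue labelled whole intestine, which the design text calls small intestine, and no treatment is named. The design text names 2 lines of birds, A and B, and 2 sample pools, but neither is given for single arrays, so p-values measure the spread between the 4 arrays of an age, which may be biological, technical or both. The 17 enterocyte markers were all above background at every age, counted as met if any array of the age exceeded it.

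Oxidative phosphorylation passes electrons from NADH through complex I, or from succinate through complex II, to ubiquinone, complex III, cytochrome c and complex IV, which reduces oxygen. Complexes I, III and IV pump protons across the inner mitochondrial membrane, and complex V uses the gradient to make ATP. In the absorptive cells of the small intestine this ATP powers the sodium pump, on which the uptake of sugars and amino acids depends. Around hatching the chick passes from the lipid-rich yolk to feed rich in carbohydrate.

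Of the 74 genes, 71 had a log2 intensity over 4 in at least 4 arrays and were tested with limma. The other 3, ATP5G2, COX7B and NDUFS5, gave signals near background, with means over the 4 arrays of an age of 2.50 to 3.01, and are not described further. Across the 7 ages 67 of the 71 differed (moderated F-test, adjusted p under 0.05), against 90.1% of all 8396 genes tested, so change with age as such was not particular to them. The 4 that did not pass were ATP5E (adjusted p = 0.878), COX5A (0.0698), NDUFB9 (0.231) and NDUFS1 (0.387). For NDUFS1 this rests on the probe set: its other 2 probe sets over the filter were higher at e20 than at e18, by 1.17 (adjusted p = 5.49e-08) and 0.97 (0.00387), and at d14 they differed from e20 by -0.49 (0.00229) and -0.71 (0.0241). Without the e18 arrays 63 passed.

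The members moved in 1 main pattern, a rise to hatch and a fall after it. Written as the mean deviation of the 71 members from their own means over all arrays, the 4 arrays of e18 read -0.32, -0.27, -0.45 and -0.42 on the log2 scale, those of e20 0.09, 0.05, 0.13 and 0.22, and those of hatch 0.38, 0.29, 0.34 and 0.39. The d1 arrays read 0.18, 0.24, 0.08 and 0.07, and the d3 arrays -0.05, -0.03, 0.14 and 0.04. The d7 arrays read -0.08, -0.01, -0.18 and -0.16 and the d14 arrays -0.06, -0.21, -0.16 and -0.23. All 4 arrays of hatch were above the arrays of every other age, and all 4 of e18 were below them. The mean was highest at hatch for 51 of 71 members (71.8%), against 12.2% of all genes, and lowest at e18 for 50 (70.4%), against 31.4%. From e18 to hatch the median difference was 0.73 and 64 of 71 members were higher, against 0.0 and 4214 of 8396 for all genes. From hatch to d14 the median difference was -0.51 and 71 of 71 members were lower, against -0.11 and 5026 of 8396 for all genes. Some of these hardly moved from hatch to d14, as SDHD (12.09 and 12.08), NDUFA1 (11.18 and 11.17) and ATP5E (4.57 and 4.56). These differences to and from hatch are described without a test, since hatch was picked out by the values themselves.

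**Figure D1:**
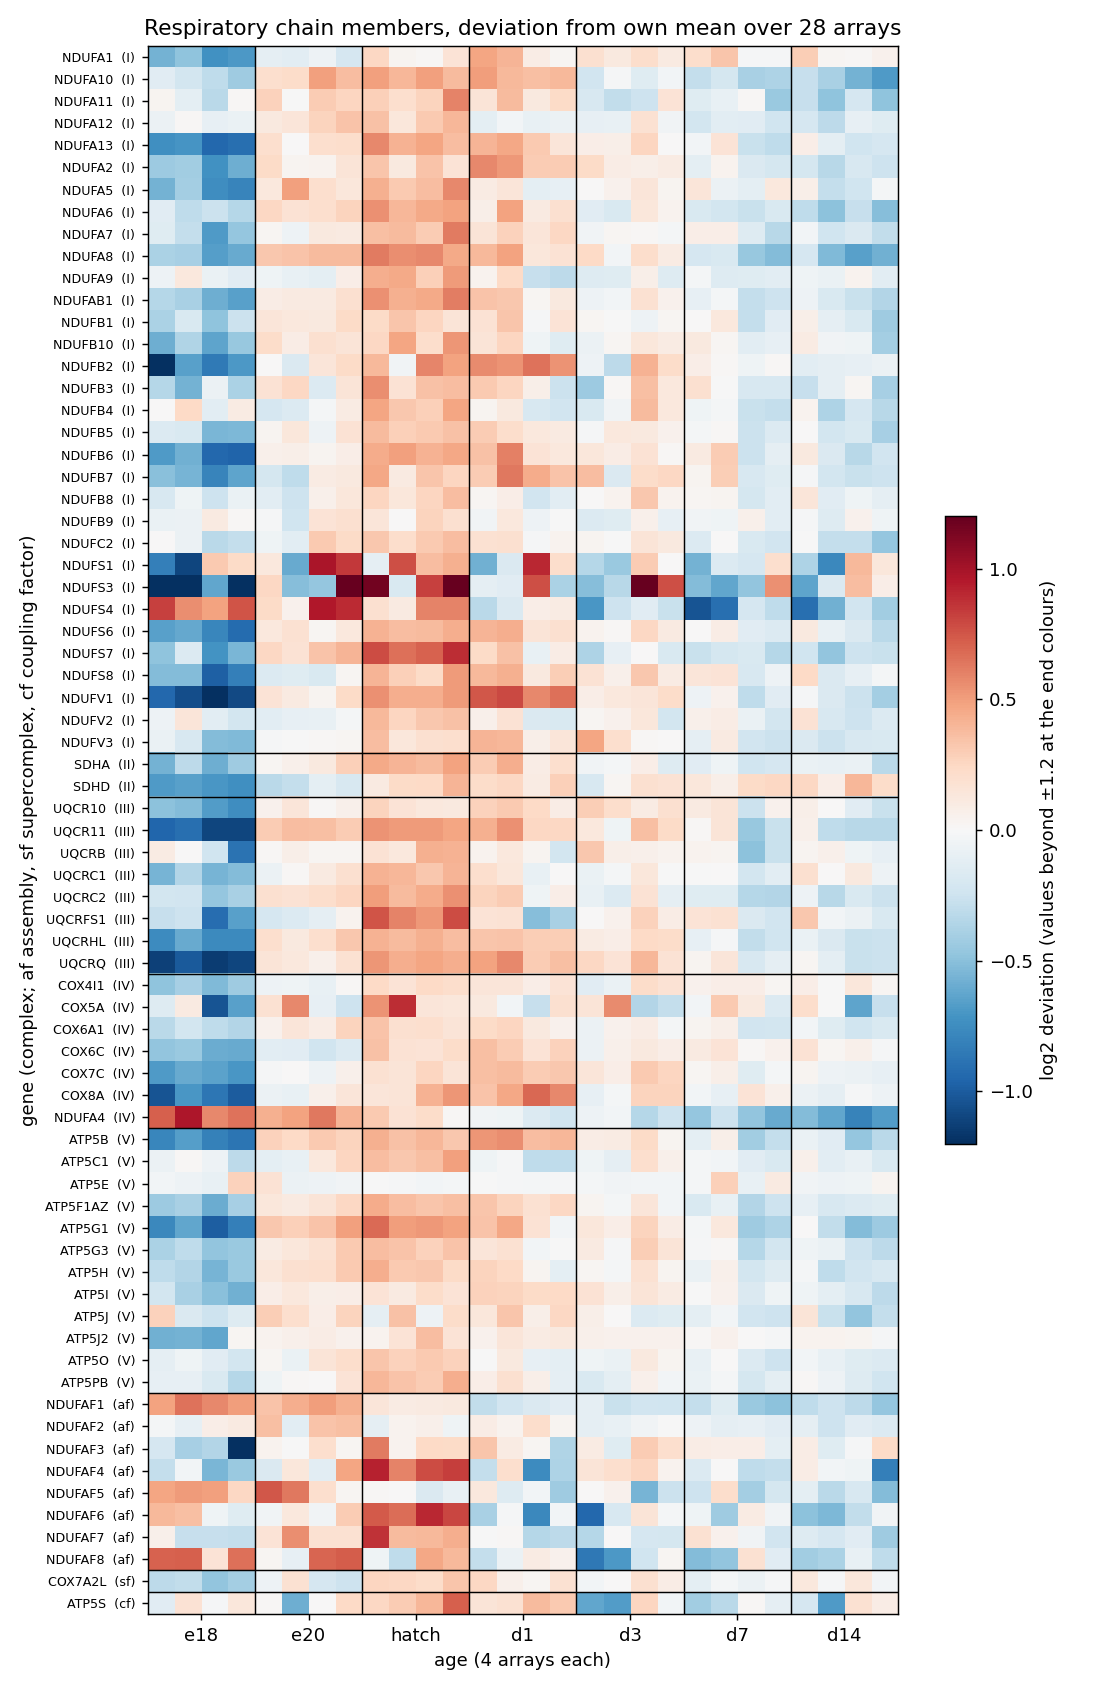
Each row is 1 of the 71 members tested, grouped by complex, and each column 1 of the 28 arrays in order of age; colour gives the log2 deviation of a gene from its own mean over all arrays, red above and blue below. Most rows are blue at e18 and red at hatch, while NDUFA4, NDUFS4, NDUFAF1, NDUFAF5 and NDUFAF8 run from red at e18 to blue at d14.

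Between e18 and e20 respiratory chain genes rose together. Of 71 members 52 were higher at e20 (73.2%), against 29.2% of all genes, and 1, NDUFA4, was lower, against 25.0%. By mean intensity the 74 members had a median rank of 554 among the 13009 genes, and 51 were in the top 1000. The shares over all genes are not matched for signal level, and its part in the difference was not tested. The median change was 0.48 on the log2 scale, against 0.04 over all genes. By complex, 25 of 32 genes of complex I rose (median 0.52), both of complex II (0.53), 7 of 8 of complex III (0.62), 5 of 7 of complex IV (0.44) and 9 of 12 of complex V (0.50). In complex III, UQCRC1 and UQCRC2 rose on the probe set used, while their other probe set over the filter was called lower. The assembly factors rose in 3 of 8 cases, with a median of 0.09. Averaging all probe sets of a symbol gave a median of 0.33 over the members.

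The e18 arrays also differed from the others in cell type markers, and in whole tissue fewer cells of a type and less RNA per cell cannot be told apart. The mean of the 17 enterocyte markers lay between 8.37 and 8.88 in the e18 arrays, between 10.87 and 11.44 at e20 and between 12.15 and 12.40 at hatch. The mean of the 11 exocrine pancreas markers lay between 10.23 and 10.61 at e18, with 11 of 13 above background, and between 3.06 and 4.14 at e20, with 5 of 13 above it and CPA1, CPB1 and CEL not above it. The 10 macrophage and heterophil markers lay between 7.68 and 8.42 at e18 and between 4.30 and 4.94 at e20. For the 2 erythroid markers tested the ranges were 12.30 to 12.77 and 7.47 to 8.49, and for the 11 fibroblast markers 12.40 to 12.84 and 11.79 to 12.14. These means hide unlike genes. Of the 11 fibroblast markers 6 were called lower and 1 higher, and 5 had a positive change. Of the 10 macrophage and heterophil markers 7 were called lower and 1 had a positive change, with a median of -1.07 and a largest fall of -9.70. Of all genes 25.0% were called lower and 29.2% higher. The 10 smooth muscle markers differed less, from 12.52 to 12.64 at e18 and from 12.62 to 12.77 at e20, and the 3 striated muscle markers tested had a mean of 7.80 at e18 and 6.88 at e20, with 2 of 3 called lower. Of the 13 striated muscle markers in the annotation 5 were above background at e18 and 4 at e20, while MB, ACTN2, MYH7, TNNT2, MYL1, MYL2, CASQ2 and TTN were not above background at either age. A marker could pass the filter through the arrays of a single age, so part of the difference is built in for markers high at e18 alone. The part of these cell populations in the members' change was not tested.

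From e20 to hatch fewer members rose than in the step before, with a smaller median change. Here 34 members were higher (47.9%), against 19.2% of all genes, and 4 were lower, against 24.1%. The median was 0.25 over the members and -0.02 over all genes. The complexes' medians were 0.26 for I, 0.39 for II, 0.26 for III, 0.26 for IV and 0.14 for V. The 4 that fell were NDUFA4, NDUFAF1, NDUFAF2 and NDUFAF5, and their number was 2 without e20 array 1, e20 array 3 or hatch array 4.

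After hatch no member rose between neighbouring ages by the main test. From hatch to d1 22 fell (31.0%), against 22.7% of all genes, and 0 rose, against 12.5%, with 3 higher at an unadjusted p under 0.05 and 1 called higher when limma's variance followed the mean level. From d1 to d3 12 fell, against 10.7% of all genes, and 0 rose, against 15.0%, with 1 higher at an unadjusted p under 0.05. Without d3 array 1 the 12 became 7. From d3 to d7 7 fell, against 8.38%, and 0 rose, against 5.07%, with 0 higher at an unadjusted p under 0.05 and 0 with the variance trend. That count of 7 was unstable: it was 4 without d3 array 1, 3 without d3 array 3, 14 without d7 array 2, 2 without d7 array 3 and 3 without d7 array 4. From d7 to d14 0 members were called in either direction, with 2 lower at an unadjusted p under 0.05 and 0 called with the variance trend, where 0.405% of all genes rose and 0.453% fell. The scaling of the arrays sets part of this picture for the genes as a whole: of all genes called between hatch and d1, 35.5% were higher, but 46.6% after quantile normalization and 25.3% after subtracting each array's median, and for d1 to d3 the 58.5% became 68.6% after subtracting the median.

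Between e20 and d14, a span that holds both the rise to hatch and the later fall, more members fell than rose. At d14, 38 members were lower than at e20 (53.5%), against 40.4% of all genes, and 2, SDHD and COX6C, were higher, against 27.2%. The median change was -0.28 over the members and -0.13 over all genes. By complex, 18 of 32 genes of complex I were lower (median -0.28), 1 of 2 of complex II (0.10) and 4 of 8 of complex III (-0.22). In complex IV 2 of 7 were lower (-0.08, or -0.06 without NDUFA4) and in complex V 8 of 12 (-0.29). The 8 of complex V take in ATP5J, whose low signal passed the filter only through arrays of d1 and earlier ages. Members called higher at e20 than at e18 and lower at d14 than at e20 numbered 32 of 71 (45.1%), against 11.8% of all genes, and these comparisons share the e20 arrays. Much of that contrast lies in the first step: of the 52 members that rose 61.5% then fell, against 40.4% of the 2449 genes that rose. Against e18, 34 members were higher at d14 (47.9%), against 33.2% of all genes, and 9 were lower, against 40.5%; the median was 0.23 over the members and -0.07 over all genes. The 9 lower members were NDUFA4, NDUFS4, NDUFA10, NDUFA11, NDUFB4, NDUFAF1, NDUFAF5, NDUFAF6 and NDUFAF8, and there were 5 without e18 array 1. For NDUFA10 and NDUFB4 the probe sets used changed by -0.20 and -0.27. Their other probe sets over the filter changed by 0.19 and 0.40, and neither was called.

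**Figure D2:**
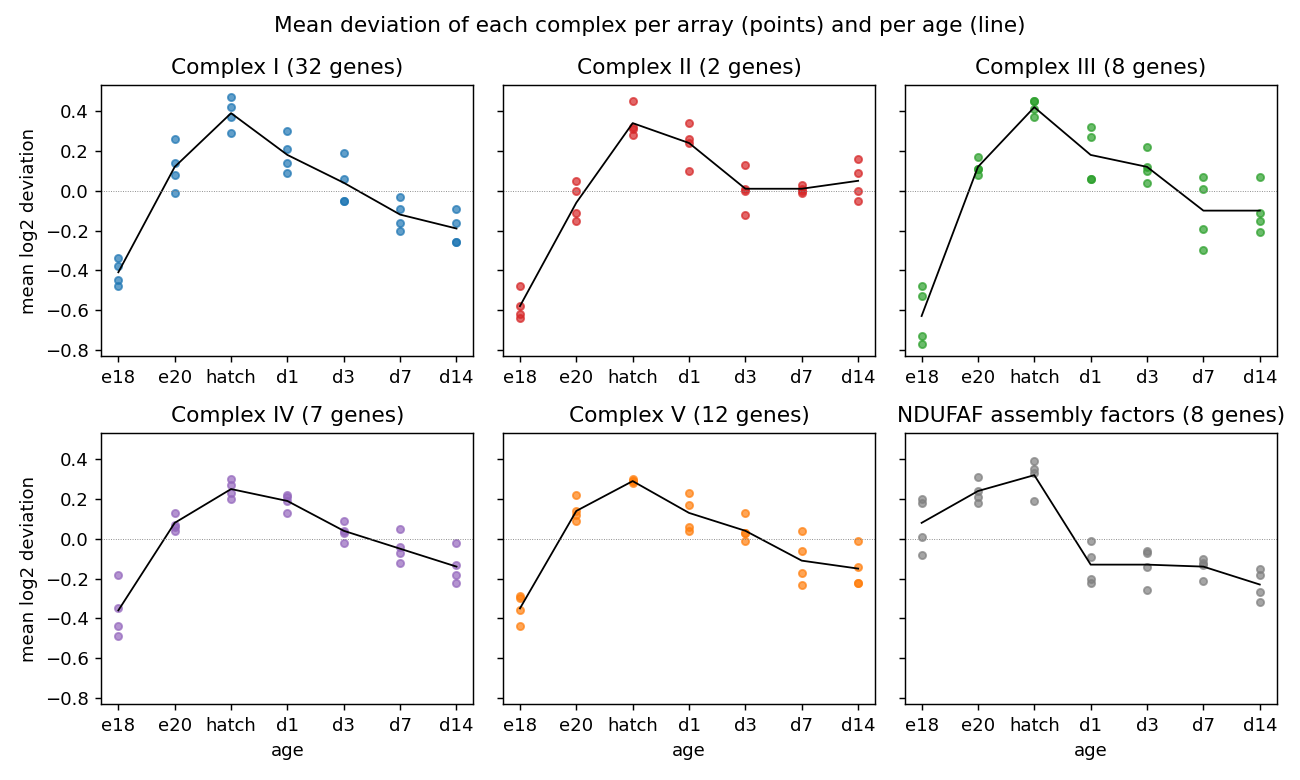
Mean log2 deviation of each complex's genes from their own means, per array (points) and per age (line through the mean of 4 arrays). The means of complexes I, III, IV and V fall below their overall mean by d7, to -0.12, -0.10, -0.05 and -0.11. That of complex IV includes NDUFA4, at -0.461, -0.247, -0.476 and -0.602 in the d7 arrays. No other gene of complex IV is below its own mean in all 4 arrays of d7. The mean of complex II is 0.05 at d14 and the assembly factors are at 0.08 already at e18.

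Complex I, the entry point for electrons from NADH, supplied 32 of the genes tested. Its mean deviation was -0.41 ± 0.07 (SD, n = 4) at e18, 0.12 ± 0.11 at e20, 0.39 ± 0.08 at hatch and -0.19 ± 0.08 at d14. Among the 6 core subunits tested (NDUFV1, NDUFV2, NDUFS1, NDUFS3, NDUFS7 and NDUFS8), which are shared with bacteria, 4 rose from e18 to e20 with a median of 0.72. Among the 26 other subunits 21 rose, with a median of 0.48, where 29.2% of all genes rose. From e20 to d14, 2 of the 6 core subunits and 16 of the 26 others fell, against 40.4% of all genes.

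NDUFV1, the flavin-carrying subunit that binds NADH, read 9.57, 9.45, 9.07 and 9.43 in the e18 arrays, 10.68, 10.62, 10.55 and 10.75 at e20 and 11.06, 10.95, 10.95 and 11.02 at hatch. It then read 11.25, 11.31, 11.09 and 11.17 at d1, 10.59, 10.64, 10.66 and 10.73 at d3, 10.45, 10.56, 10.21 and 10.37 at d7 and 10.49, 10.34, 10.26 and 10.10 at d14. The arrays of e18 and e20 did not overlap, and the highest values were those of d1. The rise to e20 was 1.27 ± 0.10 (SE), a 2.41-fold difference with an adjusted p of 9.52e-11. The fall from d1 to d3 was 0.55 on the log2 scale (-0.55 ± 0.10, adjusted p = 1.61e-04).

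NDUFS3, another core subunit, had the widest span of age means in the complex and also the widest scatter. Its arrays read 4.36, 4.36, 5.02 and 4.24 at e18, 5.90, 5.13, 5.18 and 7.22 at e20, 6.80, 5.46, 6.46 and 7.32 at hatch and 5.53, 5.51, 6.42 and 5.27 at d1. They read 5.13, 5.32, 7.26 and 6.42 at d3, 5.12, 5.02, 5.17 and 6.20 at d7 and 5.01, 5.47, 6.01 and 5.72 at d14. From e20 onward the arrays of every age overlapped those of the next. The difference from e18 to e20 was 1.36 ± 0.46 with an adjusted p of 0.0156, and it was 0.91 and not called without e20 array 4. The difference from e18 to d14, 1.06 ± 0.46 with an adjusted p of 0.0433, lost its call under 8 of 35 alternatives.

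Other subunits of complex I also rose in the first step. NDUFB2 was higher at e20 by 1.01 ± 0.17 (adjusted p = 2.28e-05), NDUFA13 by 0.98 ± 0.10 (1.64e-08) and NDUFA8 by 0.87 ± 0.10 (1.57e-07). NDUFA8 later fell by 0.47 on the log2 scale between d3 and d7 (-0.47 ± 0.10, adjusted p = 0.00353), and its d14 mean, 10.12, was back near its e18 mean of 10.10. NDUFS8, a core iron-sulphur subunit, had the largest called rise of the complex from e20 to hatch, 0.48 ± 0.11 (adjusted p = 0.00152). NDUFS7, the core subunit whose cluster passes electrons to ubiquinone, went from 10.80 at hatch to 10.19 at d1 (-0.61 ± 0.11, adjusted p = 1.01e-04), the largest called fall of the complex in that step.

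NDUFS4, an accessory subunit needed for stable complex I in mammals, ran the other way. It read 8.20, 7.94, 7.87 and 8.14 at e18, 7.62, 7.43, 8.34 and 8.28 at e20 and 7.58, 7.49, 7.98 and 7.98 at hatch. By d7 it read 6.35, 6.48, 7.18 and 7.08, and at d14 6.48, 6.81, 7.15 and 6.97. The e20 arrays were on both sides of those of e18, while all arrays of d14 were below both. NDUFS4 was lower at d14 than at e18 by -1.18 ± 0.21 (adjusted p = 1.69e-05), 0.440 of the e18 level, and than at e20 by -1.07 ± 0.21 (8.02e-05), and no step between neighbouring ages was called. The spread within an age, as between the lower and the higher pair of e20 arrays, is part of the error of those steps.

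**Figure D3:**
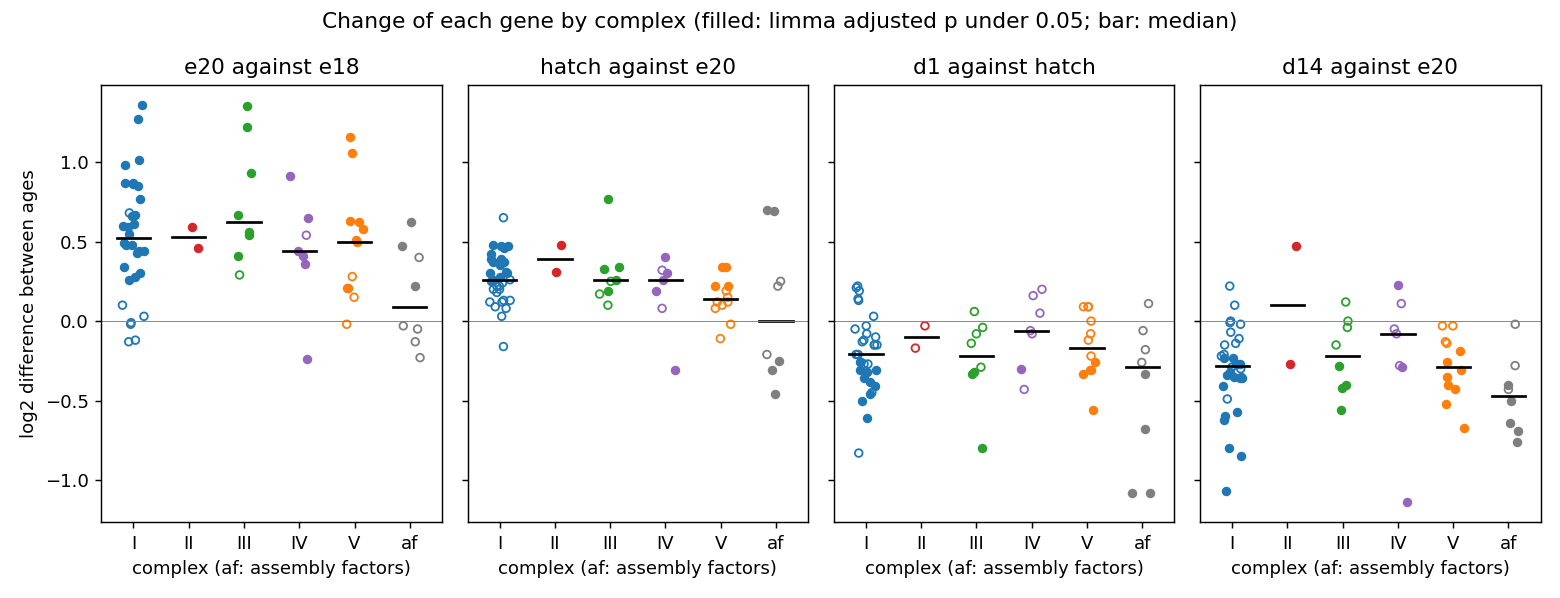
Change of each of the 69 genes of complexes I to V and the NDUFAF assembly factors (af) between the ages named above each panel, on a log2 axis; filled points passed limma's adjusted p, open points did not, and bars give the medians. In the first panel complexes I to V have medians of 0.44 to 0.62 and the assembly factors 0.09; in the last panel SDHD (complex II) and COX6C (complex IV) are the filled points above 0 and NDUFA4 is the lowest point of complex IV.

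Complex II, succinate dehydrogenase, belongs to both the chain and the citric acid cycle. SDHA, its catalytic flavoprotein, read 11.44, 11.69, 11.42 and 11.58 at e18, 12.03, 12.07, 12.12 and 12.30 at e20, 12.46, 12.41, 12.38 and 12.49 at hatch and 12.31, 12.45, 12.10 and 12.21 at d1. It read 11.96, 11.98, 12.08 and 11.85 at d3, 11.87, 11.96, 11.76 and 11.81 at d7 and 11.92, 11.92, 11.92 and 11.68 at d14. It thus rose to hatch and came partly back: the change was 0.59 ± 0.09 from e18 to e20 (adjusted p = 2.63e-06), 0.31 ± 0.09 from e20 to hatch (0.00511), -0.30 ± 0.09 from d1 to d3 (0.0126) and -0.27 ± 0.09 from e20 to d14 (0.00845). The fall from d1 to d3 was not called without d1 array 2, at -0.24, nor in a fit of these ages alone, at -0.30.

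SDHD, which anchors the enzyme in the membrane and helps to bind ubiquinone, rose in the same steps and stayed up. It read 11.17, 11.20, 11.15 and 11.11 at e18, 11.52, 11.56, 11.73 and 11.65 at e20, 11.95, 12.08, 12.09 and 12.25 at hatch and 12.07, 12.09, 11.95 and 12.13 at d1. It read 11.65, 11.87, 12.03 and 12.01 at d3, 11.98, 11.91, 12.07 and 12.10 at d7 and 12.10, 11.93, 12.25 and 12.06 at d14. Every array of d14 was above every array of e20, a difference of 0.47 ± 0.09 (adjusted p = 3.70e-05). From e18 to d14 SDHD was 1.90-fold higher (0.93 ± 0.09, adjusted p = 6.05e-10).

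The unequal course of the 2 subunits was tested as the difference between their log2 values within each array. SDHD minus SDHA was -0.38 ± 0.12 (SD, n = 4) at e18, -0.51 ± 0.10 at e20 and 0.22 ± 0.17 at d14. The change from e20 to d14 was 0.74 (two-sided exact permutation p = 0.0286, the smallest that 4 against 4 arrays allow, and 0.0343 adjusted over 6 such tests). All d14 arrays were above those of e20 for SDHD and below them for SDHA. Those values already fixed this p at its smallest, so it adds no support to them. The change from e18 to d14 was 0.60 (exact permutation p = 0.0286, adjusted 0.0343), and from e18 to e20 it was -0.14 (exact permutation p = 0.143).

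Complex III, which carries electrons from ubiquinol to cytochrome c, had its lowest mean at e18 in 8 of 8 genes and its highest at hatch in 7, on the probe sets used. For UQCRC1 and UQCRC2 another probe set was lower at e20 than at e18, so e18 was not its lowest age. The mean deviation of the complex was -0.63 ± 0.14 at e18, 0.12 ± 0.04 at e20, 0.42 ± 0.04 at hatch and -0.10 ± 0.12 at d14. UQCRQ, a small subunit, read 10.55, 10.65, 10.52 and 10.57 at e18, 11.82, 11.79, 11.72 and 11.84 at e20, 12.20, 12.10, 12.13 and 12.10 at hatch and 12.14, 12.24, 11.97 and 12.02 at d1. It read 11.91, 11.83, 12.07 and 11.84 at d3, 11.70, 11.81, 11.47 and 11.56 at d7 and 11.69, 11.55, 11.39 and 11.40 at d14. All d14 arrays were below those of e20 and far above those of e18, which stood apart from the rest. The rise to e20 was 1.22 ± 0.08, or 2.33-fold (adjusted p = 9.57e-12), and the level at d14 was still 0.94 ± 0.08 above e18 (2.19e-10).

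UQCR11, another small subunit, rose most of the complex from e18 to e20. It read 11.00, 11.04, 10.84 and 10.84 at e18 and 12.26, 12.31, 12.31 and 12.26 at e20, a 2.55-fold difference (1.35 ± 0.11, adjusted p = 4.82e-10). By d14 it read 12.01, 11.65, 11.62 and 11.62, so that it had lost part of the gain (-0.56 ± 0.11 against e20, adjusted p = 1.09e-04). UQCRHL, annotated as a copy of the hinge protein that contacts cytochrome c1, rose by 0.93 ± 0.07 (adjusted p = 7.04e-11) and fell between d3 and d7 (-0.32 ± 0.07, adjusted p = 0.00327).

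UQCRFS1, the Rieske iron-sulphur protein, stood out at hatch. It read 11.10, 11.13, 11.18 and 11.33 at e20, 12.05, 11.89, 11.81 and 12.08 at hatch and 11.46, 11.47, 10.78 and 10.91 at d1. No hatch array overlapped either neighbouring age. The rise was 0.77 ± 0.16 (adjusted p = 3.74e-04) and the fall -0.80 ± 0.16 (3.38e-04), and 15 of the 71 members (21.1%), against 5.56% of all genes, passed the test in both of these steps, which share the hatch arrays. These 15 were 44.1% of the 34 members that rose to hatch, against 29.0% of the 1612 genes that rose. Some of the 15 did not pass on another probe set over the filter. ATP5C1 and NDUFB8 were called in neither step, NDUFB4 in the first only, and NDUFA9 was called the opposite way at d1. Another probe set of ATP5O changed by 0.11 in the first step (limma adjusted p = 0.261) and was called in the second only. A further probe set of ATP5O passed in both. UQCRC1 and UQCRC2 passed in both steps on their other probe set as well.

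The core proteins UQCRC1 and UQCRC2 have a second probe set over the filter that disagrees with the first. From e18 to e20 the probe set used rose by 0.56 for UQCRC1 and 0.54 for UQCRC2, while the other was lower by -0.64 (adjusted p = 0.00821) and -0.94 (1.94e-04). From e20 to d14 UQCRC2 was lower by -0.42 on the probe set used and higher by 0.47 on the other (adjusted p = 0.0337). Both second probe sets were higher at hatch than at e20, by 1.35 and 1.10, and lower at d1 than at hatch, by -1.59 and -1.63, where the probe sets used moved the same way by less. The direction of these 2 genes between e18 and e20 is therefore not settled. Of 17 members with more than 1 probe set over the filter, 4 had such an opposite call; the others were NDUFA9 between hatch and d1 (-0.50 and 0.50) and COX7C between e20 and hatch (0.19 and -0.46).

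Complex IV, cytochrome c oxidase, had 7 genes tested, and 6 of them had their lowest mean at e18. COX8A, a small structural subunit, read 9.63, 9.97, 9.80 and 9.67 at e18, 10.60, 10.58, 10.73 and 10.82 at e20, 10.82, 10.82, 11.08 and 11.20 at hatch and 11.01, 11.13, 11.36 and 11.24 at d1. It read 10.57, 10.65, 10.93 and 10.94 at d3, 10.64, 10.57, 10.84 and 10.73 at d7 and 10.60, 10.56, 10.66 and 10.61 at d14. The values rose to d1 and then returned close to those of e20. The change was 0.91 ± 0.11 from e18 to e20 (adjusted p = 1.00e-07), -0.41 ± 0.11 from d1 to d3 (0.00541) and 0.84 ± 0.11 from e18 to d14 (1.20e-07).

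The other subunits of this complex moved less. COX6C rose by 0.40 ± 0.07 from e20 to hatch (adjusted p = 5.53e-05) and was higher at d14 than at e20 by 0.23 ± 0.07 (0.0043), a difference of 0.10 and not called after quantile normalization and of 0.11 and not called over the mean of its probe sets. COX4I1, the regulatory subunit that binds ATP, was higher at e20 than at e18 by 0.41 ± 0.07 (adjusted p = 2.00e-05) and at d14 than at e18 by 0.52 ± 0.07 (2.91e-07). COX6A1 rose by 0.44 ± 0.08 (adjusted p = 4.85e-05) and fell from e20 to d14 (-0.29 ± 0.08, adjusted p = 0.00215). COX7C was lower at d7 than at d3 by -0.22 ± 0.06 (adjusted p = 0.022), a call lost under 6 of 35 alternatives. The other COX7C probe set over the filter changed by 0.11 in this step and was not called (limma adjusted p = 0.509). The tissue-specific isoforms of mammals could not be set against these, since 1 isoform each of COX4, COX6A and COX8 was found under these symbols.

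NDUFA4 fell from the first age to the last. It read 11.85, 12.11, 11.71 and 11.79 at e18, 11.56, 11.62, 11.77 and 11.55 at e20, 11.45, 11.31, 11.36 and 11.15 at hatch and 11.10, 11.08, 10.98 and 10.90 at d1. It read 11.07, 11.11, 10.79 and 10.89 at d3, 10.68, 10.89, 10.66 and 10.54 at d7 and 10.61, 10.52, 10.34 and 10.47 at d14. No array of d14 reached the lowest array of d3 or of any earlier age. The level at d14 was 0.384 of that at e18 (-1.38 ± 0.10, adjusted p = 3.98e-12) and 0.453 of that at e20 (-1.14 ± 0.10, adjusted p = 3.07e-10). The single steps were smaller: -0.24 ± 0.10 to e20 (adjusted p = 0.0433, a call lost under 7 of 35 alternatives), -0.31 ± 0.10 to hatch (0.0136) and -0.30 ± 0.10 to d1 (0.0182). Beside this course, the mean of the 11 fibroblast markers went from 12.64 at e18 to 11.99, 10.92, 10.86, 10.67, 10.26 and 9.84 at the later ages, and that of 11 enteric neuron and glia markers from 7.57 at e18 to 5.15 at d14, with GFAP and NOS1 not above background. Other lists fell as well from e18 to d14, as proliferation markers from 9.52 to 7.76 and smooth muscle markers from 12.59 to 12.13. The means of enterocyte, goblet, T cell and B cell markers rose, over the genes that passed the filter. For T cell and B cell markers the late ages alone could meet that filter. The part of any of these cell populations in the fall of NDUFA4 was not tested.

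**Figure D4:**
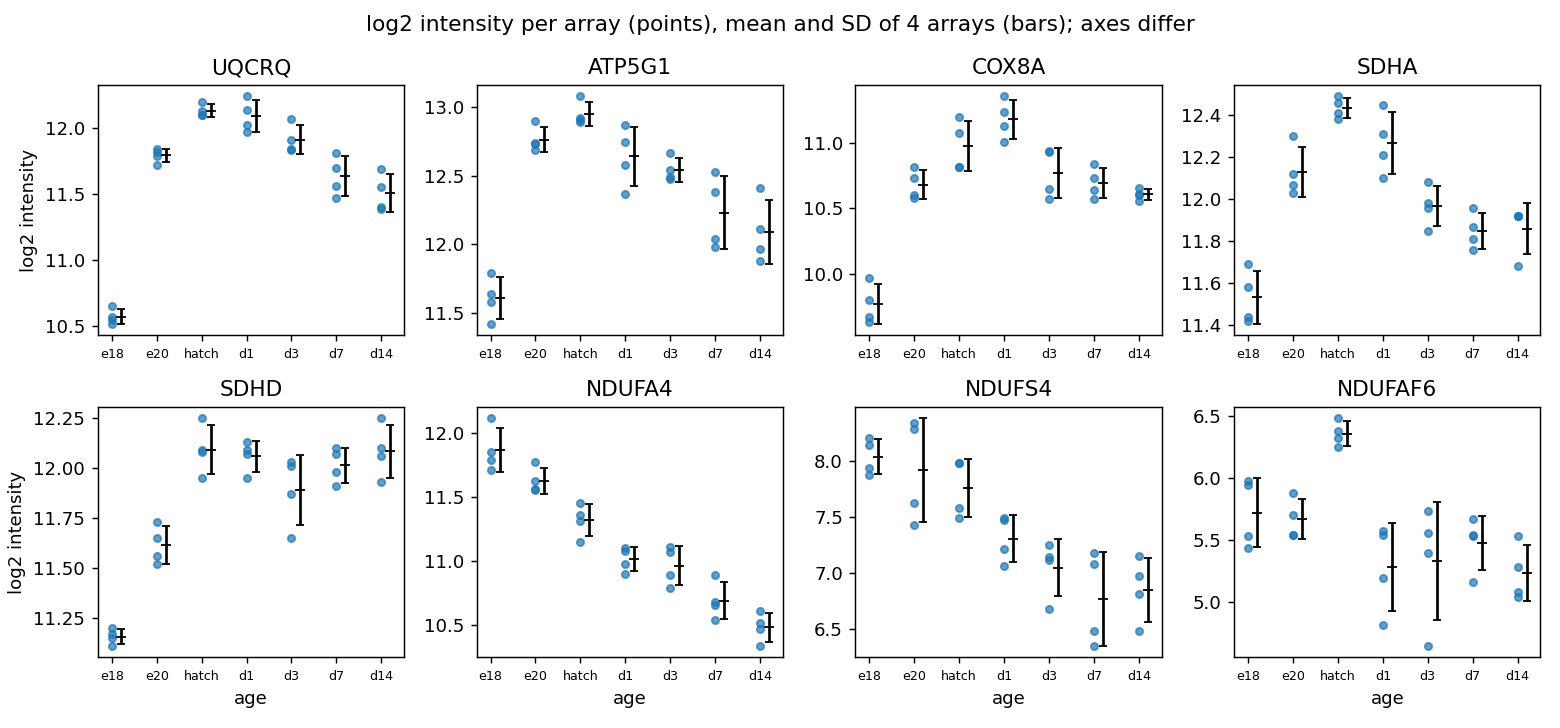
Log2 intensity of 8 genes in each of the 28 arrays (points) with the mean and SD of the 4 arrays of an age (bars); each panel has its own vertical axis, since levels of different probe sets cannot be compared. UQCRQ, ATP5G1, COX8A and SDHA rise to hatch or d1 and fall, SDHD stays near 12.08 at d14, NDUFA4 and NDUFS4 descend, and NDUFAF6 stands out at hatch, at 6.36.

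Complex V, the ATP synthase, had 12 genes tested, and its hatch arrays lay close together, with mean deviations of 0.30, 0.29, 0.28 and 0.29. From e18 to e20, 4 of 4 subunits of the membrane part (ATP5G1, ATP5G3, ATP5I and ATP5J2) rose, with a median of 0.55. Of the F1 head, which makes the ATP, 2 of 4 rose (median 0.39), and of the peripheral stalk 3 of 4 (median 0.25). In the same step 29.2% of all genes rose. From e20 to d14, 3 of the 4 membrane subunits, 2 of the 4 head subunits and 3 of the 4 stalk subunits fell, against 40.4% of all genes. ATP5E, ATP5J and ATP5J2 gave low signals, with age means of 3.50 to 4.66. ATP5J was over the filter level only in single arrays of e18, e20, hatch and d1, and its arrays from d3 on read 3.25 to 3.88. Its lower level at d14 than at e20 (-0.43) is 1 of the 3 stalk falls, and the filter builds in part of it. ATP5J2 read 3.88, 3.88, 3.83 and 4.47 at e18, around the filter level of 4. Its other probe set over the filter changed by 0.20 from e18 to e20 and was not called (limma adjusted p = 0.0776). The counts and medians by part are given without a test between the parts.

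The c subunit forms the rotating ring and is made from several genes that encode the same mature protein in mammals. ATP5G1 read 11.64, 11.79, 11.42 and 11.58 at e18, 12.73, 12.69, 12.74 and 12.90 at e20, 13.08, 12.91, 12.92 and 12.89 at hatch and 12.75, 12.87, 12.58 and 12.37 at d1. It read 12.54, 12.48, 12.67 and 12.49 at d3, 12.38, 12.53, 11.98 and 12.04 at d7 and 12.41, 12.11, 11.88 and 11.97 at d14. The e18 arrays were below all others, and the d14 arrays were between those of e18 and e20. The change was 1.16 ± 0.12, or 2.23-fold, from e18 to e20 (adjusted p = 3.13e-08) and -0.67 ± 0.12 from e20 to d14 (4.28e-05).

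ATP5G3 moved the same way over a smaller range. It read 12.74, 12.82, 12.65 and 12.68 at e18, 13.22, 13.26, 13.31 and 13.44 at e20 and 13.08, 13.05, 12.88 and 12.81 at d14, a change of 0.58 ± 0.09 to e20 (adjusted p = 4.47e-06) and of -0.35 ± 0.09 from e20 to d14 (9.46e-04). Its difference between e18 and d14, 0.23 ± 0.09 (adjusted p = 0.0213), was 0.01 and not called after quantile normalization. ATP5G1 minus ATP5G3 within an array was -1.12 ± 0.08 (SD, n = 4) at e18, -0.54 ± 0.04 at e20 and -0.86 ± 0.15 at d14. It rose by 0.57 from e18 to e20 and changed by -0.32 from e20 to d14, each with a two-sided exact permutation p of 0.0286 (adjusted 0.0343).

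Among the other subunits of complex V, ATP5B, the catalytic beta subunit, rose by 1.06 ± 0.09 from e18 to e20 (adjusted p = 8.64e-10), and its mean was highest at d1. It fell from d1 to d3 (-0.35 ± 0.09, adjusted p = 0.00622) and from d3 to d7 (-0.30 ± 0.09, adjusted p = 0.031, a call lost under 6 of 35 alternatives) and was 0.53 ± 0.09 above e18 at d14 (1.19e-05). ATP5F1AZ, the alpha subunit encoded on the Z chromosome, rose by 0.62 ± 0.07 (adjusted p = 3.44e-08) and fell from e20 to d14 (-0.31 ± 0.07, adjusted p = 2.08e-04). ATP5C1, the gamma subunit of the central shaft, rose at hatch by 0.34 ± 0.10 (adjusted p = 0.00582) and fell by d1 (-0.56 ± 0.10, adjusted p = 9.32e-05). Over the mean of its 2 probe sets these changes were 0.10 and -0.23 and neither was called.

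The NDUFAF genes, which assemble complex I and are not part of it, did not share 1 course. NDUFAF3 rose by 0.62 ± 0.17 from e18 to e20 (adjusted p = 0.00422). NDUFAF1, which helps to build the membrane arm, read 10.24, 10.42, 10.34 and 10.27 at e18, 10.11, 10.20, 10.26 and 10.19 at e20 and 9.46, 9.51, 9.45 and 9.30 at d14. It fell from e18 to d14 (-0.89 ± 0.07, adjusted p = 6.50e-11), as did NDUFAF8 (-0.86 ± 0.22, 9.19e-04) and NDUFAF5 (-0.72 ± 0.16, 2.49e-04). All d14 arrays of NDUFAF1 were below all of its arrays at e18, e20 and hatch.

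NDUFAF4 and NDUFAF6 rose to hatch and fell back by d1. NDUFAF6 read 5.97, 5.94, 5.53 and 5.43 at e18, 5.54, 5.70, 5.54 and 5.88 at e20, 6.32, 6.25, 6.48 and 6.38 at hatch and 5.19, 5.57, 4.81 and 5.54 at d1. It read 4.64, 5.39, 5.73 and 5.55 at d3, 5.53, 5.16, 5.67 and 5.54 at d7 and 5.08, 5.04, 5.28 and 5.53 at d14. The hatch arrays lay above those of every other age. NDUFAF6 rose by 0.69 ± 0.19 from e20 to hatch (adjusted p = 0.00564) and fell by d1 (-1.08 ± 0.19, adjusted p = 1.35e-04), and NDUFAF4 rose by 0.70 ± 0.18 (0.00337) and fell by d1 to 0.472 of its hatch level (-1.08 ± 0.18, 7.68e-05).

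COX7A2L, which joins complexes III and IV into supercomplexes in mammals, rose in both steps to hatch, by 0.29 ± 0.08 (adjusted p = 0.00436) and 0.35 ± 0.08 (0.00144). ATP5S was higher at hatch than at e20 by 0.50 ± 0.20 (adjusted p = 0.0435) and was called in no other comparison between neighbouring ages.

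Genes that feed, build and supply the chain were counted from lists in the same fit. Of all genes 29.2% rose and 25.0% fell from e18 to e20, 19.2% and 24.1% from e20 to hatch, 12.5% and 22.7% from hatch to d1, and 27.2% and 40.4% from e20 to d14, and each list's count is to be read against these shares. Mitochondrial ribosomal proteins, which translate the subunits encoded in mitochondrial DNA, rose in 34 of 61 cases (55.7%) and fell in 5 from e18 to e20, fell in 37 (60.7%) and rose in 0 from hatch to d1, and fell in 40 (65.6%) and rose in 0 from e20 to d14. Their mean was highest at hatch for 44 of 61. MRPL41 rose by 0.91 ± 0.14 from e18 to e20 (adjusted p = 4.36e-06), and MRPL43 fell from e20 to d14 (-1.23 ± 0.20, adjusted p = 8.56e-06). Protein import and folding genes rose in 16 of 25 cases (64.0%) from e18 to e20 and fell in 16 from e20 to d14, among them the matrix chaperonin HSPD1 (-1.70 ± 0.21, adjusted p = 1.19e-07).

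The carriers of electrons and the makers of ubiquinone rose in 7 of 15 cases (46.7%) from e18 to e20. PDSS1, which makes the ubiquinone side chain, rose by 1.93 ± 0.11 (adjusted p = 7.55e-13), and cytochrome c (CYCS) rose by 0.67 ± 0.13 from e20 to hatch (3.07e-04). Of 32 further assembly factors, 17 rose (53.1%) and 5 fell from e18 to e20. LRPPRC, which stabilises mitochondrial messenger RNA in mammals, had the largest change of these, -3.30 ± 0.30 from e18 to e20 (adjusted p = 2.50e-09) and 2.04 ± 0.30 from e20 to hatch (1.12e-05).

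The list for the citric acid cycle and pyruvate dehydrogenase also holds ME1, ME3 and PCK1, which are enzymes of neither. Its genes rose in 14 of 27 cases (51.9%) and fell in 5 from e18 to e20, and rose in 16 (59.3%) and fell in 4 from e20 to hatch. At d14 against e20, 11 were higher (40.7%) and 8 lower (29.6%) (median 0.07), where the respiratory chain members had 2 higher and 38 lower. PCK1, which draws oxaloacetate out of the cycle, was higher at d14 than at e20 by 3.25 ± 0.29 (adjusted p = 7.41e-10). Among 9 genes of adenine nucleotide and phosphate exchange 6 rose (66.7%) from e18 to e20, including mitochondrial creatine kinase CKMT1B (1.69 ± 0.10, adjusted p = 1.68e-12), while the carrier SLC25A4 fell from e20 to d14 (-1.12 ± 0.13, 7.84e-08).

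The fusion, fission and cristae list had 12 of 17 genes (70.6%) higher at e20 than at e18 and 11 (64.7%) lower at d14 than at e20. MFN2, which fuses outer membranes, went against this, at -1.24 ± 0.21 from e18 to e20 (adjusted p = 2.42e-05) and 1.86 ± 0.21 from e20 to d14 (3.14e-08). Regulators of biogenesis and the mitochondrial genome were divided, with 9 of 22 higher (40.9%) and 5 lower (22.7%) at e20 than at e18, and NRF1 was not above background at any age. Glycolysis rose in 4 of 12 cases (33.3%), near the share of all genes, and fell in 1 from e18 to e20 and fell in 7 (58.3%) from e20 to d14, when LDHA rose by 1.95 ± 0.16 (adjusted p = 1.15e-10).

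**Figure D5:**
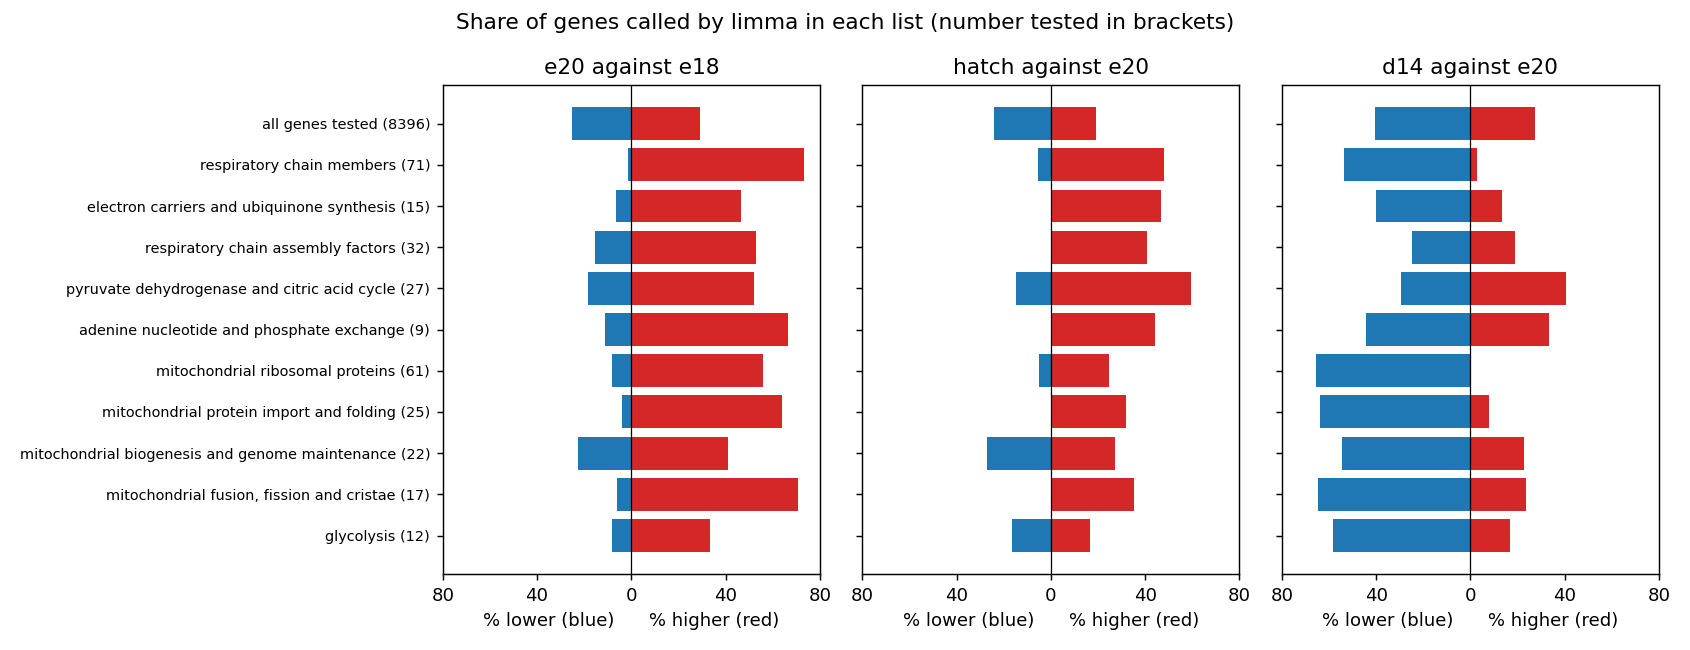
Share of genes called higher (red, to the right) and lower (blue, to the left) by limma in 3 comparisons, in percent of the genes tested, for all genes, the respiratory chain members and 9 lists of related genes. The members have 73.2% higher at e20 than at e18 and 53.5% lower at d14 than at e20, and mitochondrial ribosomal proteins have 55.7% higher and 65.6% lower in the same comparisons.

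Between hatch and d14 the means of cell type markers moved as well. The mean of the 17 enterocyte markers was 12.30 at hatch and 13.03 at d14, while that of 13 proliferation markers was 8.98 at hatch, 8.27 at d1, 8.71 at d3 and 7.76 at d14. The 7 T cell markers tested, of 13, went from 4.39 at hatch to 8.42 at d14. Of the 13, CD4, CD28, CD2, GZMA, LCK, ZAP70 and CD8BP were not above background at hatch. LCK, ZAP70 and CD8BP were not above it at d14 either. The 3 B cell markers tested, of 5, went from 3.06, under the background of every hatch array, to 9.69. At hatch JCHAIN, IGLL1 and CD79B were not above background. A marker could pass the filter through late arrays alone, so part of the T cell and B cell rises is built in. The 2 erythroid markers tested went from 6.45 to 10.06 and macrophage and heterophil markers from 4.75 to 6.75. Smooth muscle markers went from 12.53 to 12.13, fibroblast markers from 10.92 to 9.84 and enteric neuron and glia markers from 6.29 to 5.15. The part of these shifts in the members' fall after hatch was not tested.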

How the data were processed

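The deposited values are array intensity on a linear scale, 1 per probe set and array. The authors used GCRMA, a background correction and probe summary, per the submitters' processing notes; its version is not given in the sources used here. Log2 of the deposited intensity was taken here with no pseudocount. Of 38535 probe sets, those with 1 gene symbol in the platform annotation were used, and each of 13009 symbols kept its probe set with the highest mean. Genes over 4 (log2) in at least 4 arrays, 8396 in all, were fitted with limma 3.58.1 in R 4.3.3, with 1 mean per age, moderated tests and Benjamini-Hochberg adjustment over all 8396. A gene is called at an adjusted p under 0.05. The fit was also run on simulated data with independent noise and few changed genes, unlike these data, so that run does not measure the error here. Errors after ± are standard errors unless marked SD. Background is the 95th percentile of 541 negative control probe sets, 2.97 to 3.54 by array. A marker is counted as above background at an age if any array of that age exceeds its own background. The number of arrays, 4 an age, limits the precision.

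Gene IDs of 73 of the 74 members were found in the RefSeq gene table, and 0 symbols differed. The annotation has 1 further matching entry, which names 2 genes (COX7A2 and TMEM30A) and was left out. Members and lists were chosen with earlier results of these data known. Genes were named by a rule: per comparison and complex the called gene with the largest rise and the largest fall, genes with paralogs, the SDH genes, the widest span of age means per complex, probe sets that disagree, and the largest called changes in each list. NDUFB2, NDUFA13, NDUFAF8, ATP5S and the array values of NDUFV1, NDUFS4, UQCR11, UQCRFS1 and NDUFAF1 were added after their values were seen. The parts of complexes I and V were also grouped after the data were seen. Arrays were numbered by accession within an age, and these numbers were not used to pair arrays or as a term. Alternatives were another filter, pseudocount 16, quantile or median scaling, the mean over probe sets, a variance trend, fits of only the ages compared, and leaving out each array.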

Additional observations from a re-analysis of the deposited data

Results flagged for a closer look

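In 5 of 147 sets of 4 arrays tested, 1 array stood apart from the other 3 by Dixon's criterion, where chance gives about 1 in 20. ATP5G1 read 13.08 in 1 hatch array and 12.89 to 12.92 in the others. NDUFS3 read 5.02 in 1 e18 array, against 4.24 to 4.36, and 6.20 in 1 d7 array, against 5.02 to 5.17. SDHA read 11.68 in 1 d14 array, where the other 3 each read 11.92. UQCRHL read 12.11 in 1 e18 array, against 11.95 to 11.97.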

How the results depend on the processing

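No paired analysis was possible because the labels pair no arrays across ages. The main counts and the medians per complex kept their direction and stayed near their main value except as follows. After quantile normalization 2 members, not 1, were lower at e20 than at e18, and 3, not 0, were higher at d1 than at hatch; the medians became 0.32 (IV) and 0.41 (V) for e18 to e20, 0.05 (V) for e20 to hatch, -0.09 (V) for hatch to d1, and, for e18 to d14, 0.13 (all members), 0.08 (I), 0.53 (II), 0.41 (III), 0.41 (IV) and 0.09 (V). Subtracting array medians gave 0 lower from e18 to e20 and 1 higher from d1 to d3. Over the mean of a symbol's probe sets the medians were 0.33 (all members), 0.42 (II) and 0.41 (III) for e18 to e20, 0.28 (II) for e20 to hatch, 0.02 (III) for d1 to d3, 0.41 (II) and 0.19 (IV) for e18 to d14, and -0.08 (III) and -0.01 (II, turned from 0.10) for e20 to d14, with 1 member higher from d1 to d3. With 16 added, V changed by 0.39 from e18 to e20 and 1 member was higher at d1 than at hatch. With no filter 2 were, and IV changed by 0.39 from e18 to d14; with the variance trend 1 was. Fits of only the ages compared gave 0 lower from e18 to e20, 7 lower from d1 to d3 and 1 lower from d3 to d7. Leaving out 1 array gave 0 to 1 lower from e18 to e20, 2 to 4 lower from e20 to hatch, 0 to 1 higher from hatch to d1, 0 to 1 higher and 7 to 13 lower from d1 to d3, 2 to 14 lower from d3 to d7 and 5 to 10 lower from e18 to d14. The cause was not tested. Removing the filter moved the median of all genes between e20 and d14 by 0.12. Among all genes called, the share higher from e20 to hatch went from 44.4% to 55.0% over the mean of probe sets, from hatch to d1 from 35.5% to 50.7% without the filter, and from d7 to d14 from 47.2% to 62.3% with 16 added. Low probe sets such as ATP5E and ATP5J2, near 4.5, can show little change under GCRMA.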

Other observations

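In 3 members, picked after their values were seen, arrays 1 and 2 of an age, as numbered here by accession, often read below arrays 3 and 4. For NDUFS1 this was so at 5 of 7 ages. Its arrays read 10.38, 10.10, 11.52 and 11.43 at e18, 11.32, 10.59, 12.18 and 12.04 at e20, 11.09, 11.98, 11.56 and 11.62 at hatch and 10.62, 11.02, 12.11 and 11.41 at d1. They read 10.86, 10.76, 11.50 and 11.20 at d3, 10.63, 11.04, 11.00 and 11.40 at d7 and 10.83, 10.43, 11.58 and 11.33 at d14. For NDUFS4 it was so at 5 of 7 ages and for NDUFAF8 at 6. This order was not confined to the 3 members. COX8A had it at every age except e18, and ATP5S at every age except e18 and e20. The members as a whole had no such 1-way order. In their mean deviation arrays 1 and 2 read above arrays 3 and 4 at e18, d1 and d7, as with 0.18 and 0.24 against 0.08 and 0.07 at d1. They read below them at e20 and d3. The labels give no line or pool for an array, so no fit holds either as a term, and the spread is part of the error in the tests of these genes.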
